A study of Mus musculus with 16 samples.

Results

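The regions described here are stretches of chromatin that were listed as open in mouse induced pluripotent stem cells (iPSC) and in at least 2 of days 8, 10 and 12 of reprogramming, but in none of days 0, 2, 4 and 6. They were also more than 1 kb from both ends of every RefSeq protein-coding gene. After peaks that overlapped by at least 1 bp were merged across the 8 lists, 1976 of 165616 regions met this rule, which is 1.19% of all regions, 1.34% of the 147481 distal regions and 5.43% of the 36374 distal regions of iPSC. The members were chosen by their measured coverage in all 8 lists, so coverage by day is given as a description and supports nothing.

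The assay was ATAC-seq, where a transposase (Tn5) cuts accessible DNA and leaves adapters for sequencing. The 16 samples comprised 2 each of mouse embryonic fibroblasts (MEF, day 0), of reprogramming intermediates at days 2, 4, 6, 8, 10 and 12, and of iPSC, with 1 deposited peak list per stage. All came from the strain 129XOG2 (E13.5 embryo), and OG2 mice carry a green fluorescent protein gene driven by Pou5f1 sequences (background knowledge). The MEF were of passages 1 to 3 and were switched to reprogramming medium in a chemical protocol, which uses small molecules in place of factor genes. The iPSC grew on feeders in medium with LIF, the GSK3 inhibitor CHIR99021 and the MEK inhibitor PD0325901. The sources used here do not say how samples were pooled for a list. There is thus no replicate spread, and neither tests between stages nor p-values are given.

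As background, distal open regions are often enhancers or silencers, which are bound by transcription factors and act on genes over long distances. Reprogramming of fibroblasts involves a mesenchymal-to-epithelial transition, in which adhesion genes such as Cdh1 are switched on, and the later start of a pluripotency network that includes Pou5f1, Sox2, Nanog and Esrrb. MicroRNAs take part in both: the miR-302 and miR-290 families are abundant in pluripotent cells, and the miR-200 family and miR-205 repress Zeb1 and Zeb2, repressors of the epithelial state.

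Late-opening regions lay at the miR-302, miR-290, miR-200b and miR-205 loci. A hairpin in the RefSeq table was within 10 kb of such a region at 26 of 816 loci (3.19%), which held 40 of 1005 hairpins (3.98%). The same held at 151 loci for the 20411 distal regions in iPSC alone, at 63 for the 6987 of days 8 to 12 without iPSC and at 46 for the 1885 in all 8 lists, so such loci are not particular to late-opening regions. The loci described here were picked out after the values were seen. The mature sequences are shown because their seeds, bases 2 to 8 in capitals, group the products of separate loci. They are from RefSeq for GRCm38.p6 and run 5′ to 3′.
mmu-miR-302b-3p: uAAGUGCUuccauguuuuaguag
mmu-miR-302d-3p: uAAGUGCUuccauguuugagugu
mmu-miR-294-3p: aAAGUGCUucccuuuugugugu
mmu-miR-295-3p: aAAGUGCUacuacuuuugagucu
mmu-miR-302c-3p: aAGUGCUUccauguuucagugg
mmu-miR-367-3p: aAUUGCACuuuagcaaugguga
mmu-miR-200b-3p: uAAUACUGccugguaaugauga
mmu-miR-429-3p: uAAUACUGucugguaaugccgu
mmu-miR-200a-3p: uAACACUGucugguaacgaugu
mmu-miR-205-5p: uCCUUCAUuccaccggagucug
Among the listed sequences, the seed AAGUGCU was shared by 4, from both the miR-302 locus on chromosome 3 and the miR-290 locus on chromosome 7. Of the miR-290 locus, only products with this seed are shown. Its other 3p products had different seeds: AAGUGCC (miR-290a-3p), AAGUGCA (miR-291b-3p), GUGCCGC (miR-293-3p), AGUGCCC (miR-290b-3p) and AGAGCCC (miR-292b-3p). The RefSeq set used is not complete for these loci: of Mir302a it held the 5p product only. The count of 4 is thus one of listed sequences, not of all products of the loci. The seed AAUACUG was shared by miR-200b-3p and miR-429-3p.

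The region at the miR-302 locus, chr3:127544447-127545701 (mm10), overlapped the hairpins of Mir302b, Mir302c, Mir302a and Mir302d and ended 32 bp before Mir367. It was in all 3 late lists, and the score of its peak stood at percentile 53.2 of the day 8 list, 80.1 of day 10, 69.5 of day 12 and 83.6 of iPSC. A percentile here is the rank of a peak's score within its own list, since scores of lists of unlike depth cannot be set against each other. A neighbour 6978 bp from the hairpins, which overlaps the end of a protein-coding gene, was covered in all 8 lists at percentiles between 91.7 and 98.2. At the miR-200b locus, the late-opening region chr4:156059083-156060093 was 3333 bp from Mir200b and 5096 bp from Mir429. It stood at percentiles 95.1, 90.04 and 96.2 at days 8, 10 and 12 and at 57.9 in iPSC, so its rank was lower in iPSC than in each of the 3 late lists.

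At the miR-290 locus, the region chr7:3211635-3212561 was 6065 bp from Mir290a and 8212 bp from Mir295. Its percentiles were 46.0, 34.0 and 76.8 at days 8, 10 and 12 and 86.3 in iPSC, and the iPSC value was the highest of the 4. A neighbouring region, chr7:3213207-3213901, was covered in iPSC alone at percentile 81.0. Still closer to the hairpins, the lists of days 2 and 8 and of iPSC held chr7:3220996-3222740 at percentiles 36.7, 36.2 and 78.8. Also closer was chr7:3217678-3218057, covered at days 2, 8 and 10 at 2.72, 53.2 and 77.4. The locus as a whole thus had peaks by day 2. At Mir205, the region chr1:193510025-193510534 was 2495 bp from the hairpin, at percentiles 67.4, 78.6 and 17.7 at days 8, 10 and 12 and 52.4 in iPSC. On the other side of this hairpin, chr1:193504051-193504996 was covered at day 4, with percentiles of 18.5 there, 35.5, 55.6 and 34.3 at days 8, 10 and 12 and 91.99 in iPSC. A farther region, chr1:193513804-193514547, was covered at day 2 and in iPSC, at 20.4 and 78.2. Here too the late-opening region was not the earliest at its locus. The other miR-200 locus, with Mir200c and Mir141, had no such region: a region 140 bp from its hairpins was covered at day 10 and in iPSC alone and lay 923 bp from a gene end.

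**Figure D1:**
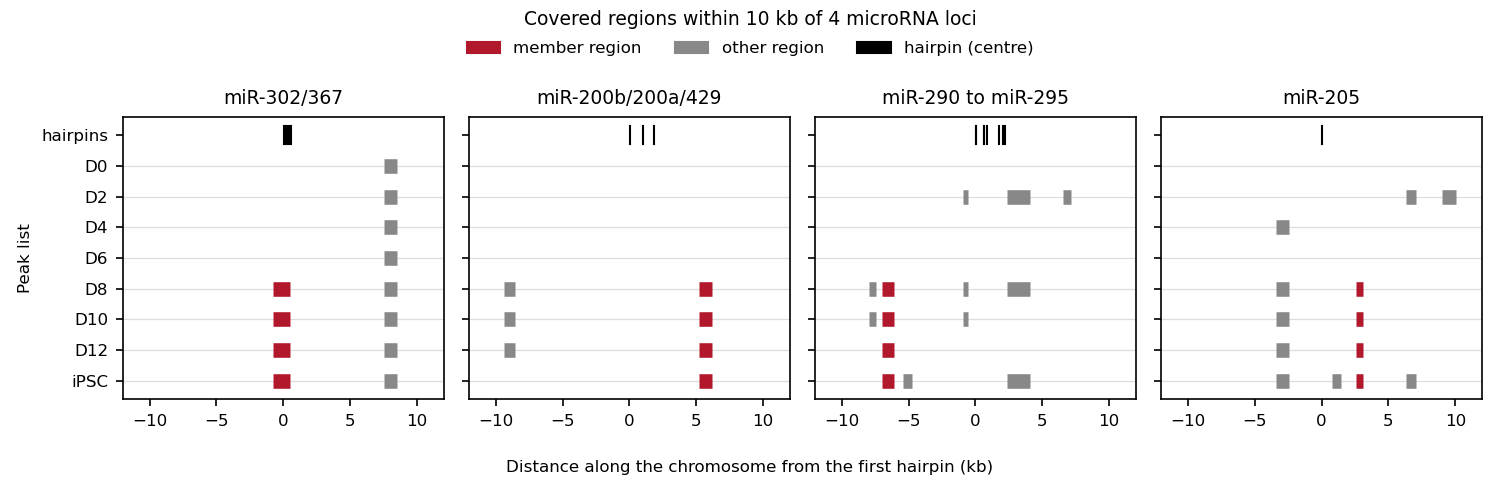
Covered regions within 10 kb of 4 microRNA loci, drawn to scale as bars along the chromosome (x axis, distance from the first hairpin in kb), with a row for each peak list and black ticks for hairpin centres. The late-opening regions (red) appear in the rows D8, D10, D12 and iPSC, and other regions are grey.

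At 3 of these loci the late-opening region held the annotated start of a long noncoding RNA gene. The windows are shown because they give bases inside the late-opening regions at or near these microRNAs. Each runs from 250 bases before to 50 bases after the start, on the gene's strand, from RefSeq for GRCm38.p6. Capitals mark the FOXA letters TGTTTAC in the window of Gm51018 at the miR-302 locus (chr3:127544839-127545138, plus strand), the TEAD letters GGAATG in that of Gm13648 at the miR-200b locus (chr4:156059753-156060052, minus strand) and the SOX letters AACAATG in that of Mir205hg (chr1:193510161-193510460, minus strand). Matches to other motifs are not marked, such as those to the ZIC and RUNX letters in the window of Mir205hg.
Gm51018: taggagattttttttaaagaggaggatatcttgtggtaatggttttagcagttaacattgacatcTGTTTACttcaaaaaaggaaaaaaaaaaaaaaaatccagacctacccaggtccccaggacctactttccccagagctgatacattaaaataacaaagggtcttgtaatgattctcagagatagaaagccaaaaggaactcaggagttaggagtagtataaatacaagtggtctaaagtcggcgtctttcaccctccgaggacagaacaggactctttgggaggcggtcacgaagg
Gm13648: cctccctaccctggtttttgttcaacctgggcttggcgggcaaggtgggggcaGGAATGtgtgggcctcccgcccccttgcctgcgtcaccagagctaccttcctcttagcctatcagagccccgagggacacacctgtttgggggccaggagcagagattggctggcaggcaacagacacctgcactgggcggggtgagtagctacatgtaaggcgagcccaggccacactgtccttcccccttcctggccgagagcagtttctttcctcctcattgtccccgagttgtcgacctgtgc
Mir205hg: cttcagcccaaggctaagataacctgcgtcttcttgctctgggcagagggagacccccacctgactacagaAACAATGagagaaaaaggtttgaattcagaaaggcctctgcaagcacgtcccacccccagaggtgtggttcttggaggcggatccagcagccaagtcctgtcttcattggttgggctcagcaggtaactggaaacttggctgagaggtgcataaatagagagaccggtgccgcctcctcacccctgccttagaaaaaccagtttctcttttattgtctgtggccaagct
The 3 windows held 5, 9 and 5 CpG in this order.

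Among the 1976 regions, 730 (36.9%, 95% interval 34.8 to 39.1) were in the lists of days 8, 10 and 12. A further 891 (45.1%) were in those of days 8 and 10, 277 (14.0%) in those of days 10 and 12, and 78 (3.95%) in those of days 8 and 12. Leaving out the day 8 list and requiring both others gave 1007 regions, and leaving out that of day 10 in the same way gave 808. All such intervals are exact (Clopper-Pearson) and cover only counting error. Just outside the rule were 2350 distal iPSC regions in exactly 1 late list and no early list, of which 573 were at day 8, 925 at day 10 and 852 at day 12. Another 671 were in at least 2 late lists and in exactly 1 early list, which was day 2 for 350 of them. The gene end rule removed 221 of the 2197 regions that passed on coverage. The closest region inside it was 1001 bp from an end and the closest outside 997 bp. Within 500 bp of this limit, 36 regions were inside and 42 outside.

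The lists differed in depth, which was read from their background pileup, the lowest fragment pileup that the caller took as local background. For days 0, 2, 4 and 6 it was 1.96, 3.08, 1.23 and 2.12. For days 8, 10 and 12 it was 0.682, 0.968 and 0.248, and for iPSC 1.90. The lists of days 8, 10 and 12 were thus the shallowest of the 8, and the part that depth has in the absence of regions from day 12 was not tested. The day 12 list was also the shortest, with 31915 peaks, and that of day 2 the longest, with 83022.

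The summit level of a peak, its summit pileup over the background pileup of its list, had a median of 19.06 in the 1699 regions of day 8 (quartiles 13.2 and 29.3) and of 19.12 in the 1898 regions of day 10 (13.4 and 28.9). It was 36.2 in the 1085 regions of day 12 (24.1 and 52.3) and 12.6 in iPSC (8.43 and 20.02). The lowest level of any listed peak was 4.09, 3.25, 4.88 and 3.78 for days 0, 2, 4 and 6. For days 8, 10 and 12 it was 7.33, 6.20 and 12.1. Any peak of the late lists therefore lies above the lowest levels of days 0 to 6, whichever region it is in, and nothing is read from that. The levels of late lists and iPSC are not compared either.

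**Figure D2:**
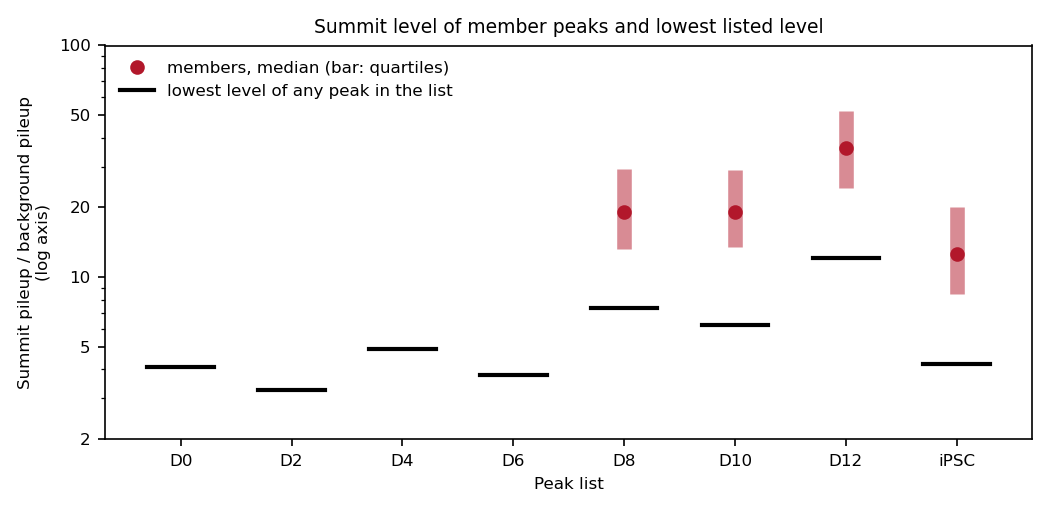
Summit level (summit pileup over the background pileup of the list, log axis) of the late-opening distal iPSC regions in the 4 lists that cover them, as median (points) and quartiles (bars), with the lowest level of any peak in each of the 8 lists (black lines). The medians are 19.06, 19.12 and 36.2 at days 8, 10 and 12 and 12.6 in iPSC, and the lowest listed levels of days 8, 10 and 12 (7.33, 6.20 and 12.1) are themselves above those of days 0 to 6 (between 3.25 and 4.88).

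Within their lists these regions had middling scores. The median percentile was 51.9 at day 8, 55.6 at day 10 and 62.4 at day 12, against 48.6, 53.8 and 62.4 for the 6987 distal regions of days 8 to 12 that were not in iPSC. In iPSC the median was 56.6 (quartiles 32.4 and 78.2), against 36.9 (16.3 and 62.0) for the 20411 distal regions found in iPSC alone and 78.9 for the 1885 distal regions covered in all 8 lists. Of the late-opening regions 9.82% were above percentile 90 of the iPSC list, against 4.04% of those in iPSC alone. Regions in iPSC alone made up 56.1% of the distal iPSC regions. These ranks come from the lists that the rule used and are descriptions.

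**Figure D3:**
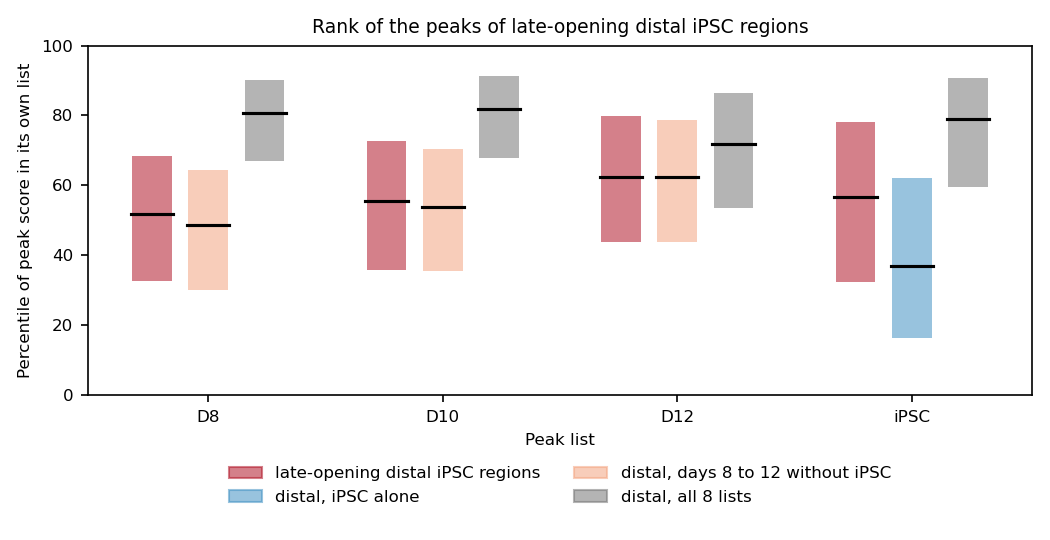
Percentile of the peak score in its own list (y axis) for 4 classes of distal regions in the lists of days 8, 10 and 12 and iPSC, with quartiles as bars and medians as black lines. In iPSC the late-opening regions (median 56.6) lie between regions in iPSC alone (36.9) and regions in all 8 lists (78.9).

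The share of late-opening regions grew with the iPSC score, as did that of regions in exactly 1 late list. Among the 24737 distal iPSC regions in no early list, they made up 4.30% of those up to percentile 25 of the iPSC list, 7.35% of those between 25 and 50, 9.64% of those between 50 and 75 and 14.3% of those above 75. The share of them that was in all 3 late lists was 28.3%, 34.1%, 40.2% and 41.5% in the same order. Regions in exactly 1 late list, which do not meet the rule, made up 6.56%, 10.0%, 11.1% and 12.3% in that order. All shares in this paragraph come from lists that the rule used and are descriptions. Read from the late side, 22.0% of the 8963 distal regions with at least 2 late lists and no early list were also in iPSC. This share was 19.6% with exactly 2 late lists and 27.9% with 3, against 8.49% with only 1.

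**Figure D4:**
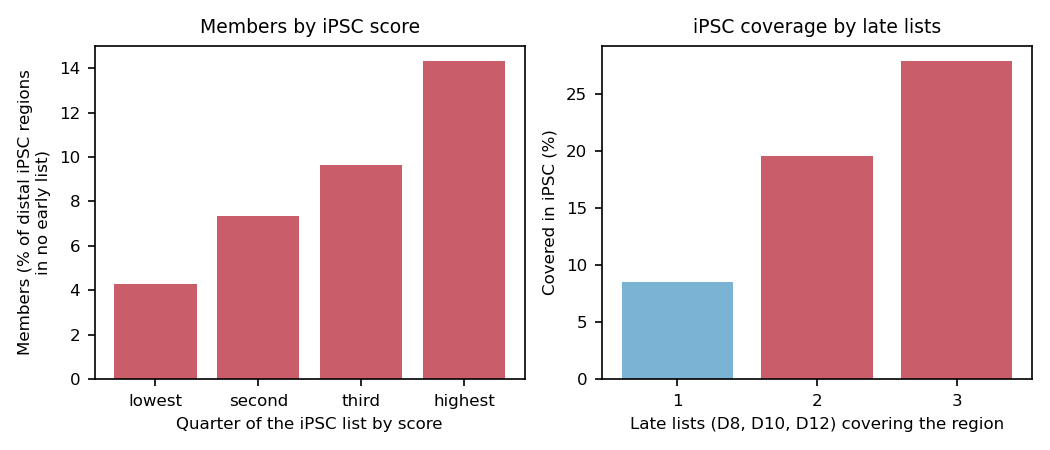
Left, late-opening regions as a percentage of distal iPSC regions in no early list, by percentile range of the iPSC score (up to 25, 50, 75 and 100), between 4.30% in the lowest and 14.3% in the highest range. Right, percentage of distal regions in no early list that iPSC also covered, by the number of late lists, at 8.49%, 19.6% and 27.9% for 1, 2 and 3 lists.

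Ranks in the late lists went together. Across regions, the percentiles of days 8 and 10 had a Spearman rho of 0.67 and a Pearson r of 0.65 (1621 regions), those of days 10 and 12 had 0.44 and 0.42 (1007 regions), and those of days 8 and 12 had 0.37 and 0.35 (808 regions). With the iPSC percentile, rho was 0.18 at day 8, 0.16 at day 10 and 0.20 at day 12. These are descriptions across regions, which share the depth of their lists. The summit was within 100 bp of the iPSC summit in 55.5% of regions at day 8, 56.8% at day 10 and 52.4% at day 12, against 62.7%, 64.0% and 59.5% of distal regions in all 8 lists.

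The highest iPSC scores were inside Smco2, with a summit pileup of 182 in iPSC, and inside Pde8b, a cyclic AMP phosphodiesterase gene, with 217. The Pde8b region, chr13:95215728-95216222, stood at percentiles 99.7, 91.8 and 86.5 at days 8, 10 and 12 and 99.9 in iPSC. The Smco2 region was at percentile 40.2 at day 8, 91.3 at day 10 and 99.95 in iPSC, and was not in the day 12 list. Next came regions nearest to Lrp12, Rims1, Shroom3, Pdcl2, Gm39002, Magi3, Atp6v1h and Adam34l. A region high in all 4 lists lay inside Pde7b, also a cyclic AMP phosphodiesterase gene: chr10:20517919-20518807 stood at 95.2, 99.8, 99.8 and 98.6 at days 8, 10 and 12 and in iPSC. Rims1, a gene of synaptic vesicle release, had a region with percentiles 91.3, 99.8, 99.3 and 99.6. Regions nearest to Ralgps2, Rapgef5, Map4k3, Gadl1, Insig1 and Foxa2 also stood at percentile 86.9 or higher in each of the 4 lists, as did chr7:52169615-52170978, which has no protein-coding gene within 100 kb.

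Genes of the pluripotency network held 20 of the late-opening regions. Regions were assigned to the nearest protein-coding gene within 100 kb, which placed 1796 of them at 1510 genes, or 6.90% of all 21887 genes. Of the 37 listed pluripotency genes 15 (40.5%) had at least 1. The same list also had at least 1 region in iPSC alone at 29 of 37 genes, against 35.3% of all genes, and a region of days 8 to 12 without iPSC at 19, against 18.0%. Regions of several classes thus lay near these genes more often than near all genes, and nearest-gene assignment favours genes with long flanks.

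Of these 20 regions, 14 were in all 3 late lists. Tbx3, a T-box factor of naive pluripotent cells, had 2 regions, and the farther, 89.8 kb from the gene, stood at percentiles 86.5, 92.8 and 91.1 at days 8, 10 and 12 and 81.6 in iPSC. Tfcp2l1, a factor downstream of LIF signalling, had 2: the region inside the gene was at 60.8, 65.8 and 80.4 in the late lists and 98.8 in iPSC, and that 4.55 kb away was at 84.6, 91.8 and 70.1 and 91.9 in iPSC. All 4 values of each Tfcp2l1 region were in the upper part of their lists.

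Sox2, a core pluripotency factor, had 1 region 92.6 kb away (chr3:34745033-34745780) at percentiles 51.9, 70.5 and 74.7 at days 8, 10 and 12 and 96.3 in iPSC. Esrrb, a nuclear receptor of the naive state, had 1 inside the gene, at 43.4, 68.9 and 88.3 in the late lists and 72.3 in iPSC. Klf4 had 1 at 62.9, 79.0 and 59.2 in the late lists and 98.7 in iPSC, 62.3 kb away. The region of Mycn, a MYC family gene, stood above percentile 83 in each of its 4 lists (83.7, 89.0, 85.4 and 85.0). Klf5, a Krüppel-like factor, had 2 regions, and the one 91.4 kb away was at percentile 1.02 in iPSC, near the bottom of that list. Sall4 and Mybl2 had 2 regions each, and Dppa3, Dppa4, Nr0b1, Nr5a2, Prdm14 and Tet2 had 1 each. No region was assigned to Pou5f1, Nanog or Zfp42. Each region goes to its nearest gene only. The Dppa3 region, chr6:122662801-122663958, is also within 100 kb of Nanog, which starts at chr6:122707489. Ends of Pou5f1 were covered at days 6, 8, 10 and 12 and in iPSC, that of Nanog in iPSC alone.

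Epithelial genes held 17 late-opening regions at 10 of 35 genes (28.6%). Here 4 regions were in all 3 late lists, and 12 were at days 8 and 10 without day 12. The list also had a region in iPSC alone at 17 of 35 genes and a region of days 8 to 12 without iPSC at 19. Elf3, an epithelial ETS factor, had 3 regions, and the nearest, 2.06 kb away, was in all 3 late lists at 63.2, 53.8 and 81.4, and at 68.2 in iPSC. Dsp, which encodes desmoplakin of the desmosome, had 2: that 41.7 kb away was at 82.5 and 79.5 at days 8 and 10 and at 99.3 in iPSC, and was not in the day 12 list.

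Cdh1 encodes E-cadherin and had a region inside the gene at 30.1 and 53.8 at days 8 and 10 and 24.8 in iPSC, and another 4.42 kb away at 47.7, 20.4 and 8.56 at days 8, 10 and 12 and 46.0 in iPSC. All but 1 of these values were in the lower part of their lists. Epcam, an epithelial adhesion gene, had 1 region with percentiles of 76.5 at days 8 and 10 and 77.2 in iPSC. Grainyhead-like 2 (Grhl2) activates epithelial genes and had 2 regions in days 8 and 10 and iPSC, with 51.9, 12.6 and 18.6 in the first and 69.4, 45.8 and 53.2 in the second. Dsg2 and Pard3 had 2 each, and Esrp2, Marveld2 and Ovol2 had 1 each. Without the day 8 list 5 epithelial regions were left, and without that of day 10 there were 4.

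The pluripotency and epithelium lists differed in day 12 coverage, which was 16 of 20 (80.0%) and 5 of 17 (29.4%), beside 54.9% of all late-opening regions. Their median percentiles at day 8 were 55.8 and 60.9, at day 10 72.6 and 57.3, and in iPSC 76.9 and 53.2. The difference was not tested, since late coverage was used by the rule, and the part that the low depth of day 12 has in it was not tested. When all 3 late lists were required, 14 and 4 regions remained in these lists.

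**Figure D5:**
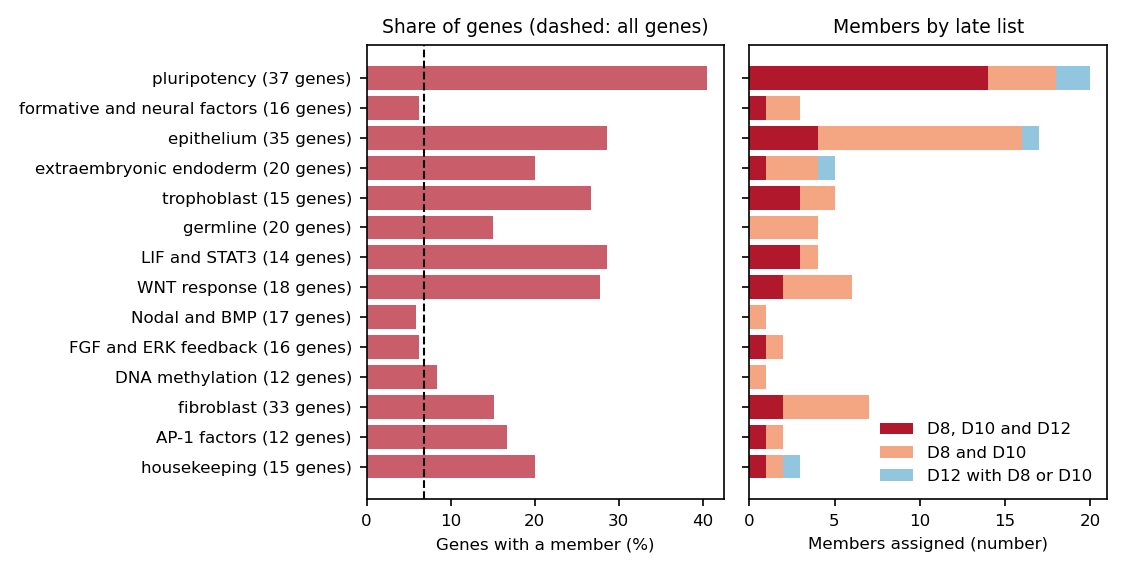
Left, percentage of the genes of each of 14 lists with at least 1 late-opening distal iPSC region, with 6.90% of all protein-coding genes as the dashed line. Right, number of such regions per list, split by the late lists that covered them: 14 of 20 at pluripotency genes and 4 of 17 at epithelial genes were in all of D8, D10 and D12.

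Genes of LIF signalling, the cytokine pathway that sustains mouse pluripotent cells, had a region at 4 of 14. Lifr, the receptor gene, had a region at 84.8, 91.6 and 66.0 at days 8, 10 and 12 and 91.3 in iPSC. Lif, the ligand gene, had one at 84.8, 79.6 and 63.0 and 95.5 in iPSC. Socs3, a feedback inhibitor, had one at 68.6, 63.0 and 81.7 and 84.5 in iPSC. These 3 regions were above percentile 62 in all 4 lists, while the fourth, at Gadd45g, was not at day 12.

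WNT response genes had 6 regions at 5 of 18 genes, with 2 inside Tcf7l1, a repressor of WNT targets. Extraembryonic endoderm genes had 5 at 4 of 20, among them a Foxa2 region 73.7 kb from the gene at 96.6, 99.1 and 92.3 at days 8, 10 and 12 and 86.9 in iPSC. Germline genes had 4 at 3 of 20 (Kit, Prdm1 and Tnp1), all of them at days 8 and 10 without day 12. Formative and neural factors had 3, all at Hes1, a target of Notch, and FGF feedback genes had 2, both at Spry2. Nodal and BMP genes and DNA methylation genes had 1 region each, at Bmp7 and Gadd45a. Fibroblast genes had 7 at 5 of 33 (15.2%), with 2 each at Runx1 and Runx2, AP-1 factors 2 at 2 of 12, and housekeeping genes 3 at 3 of 15 (20%). All lists but the Nodal and BMP, FGF and formative ones were thus above 6.90%, housekeeping included. Other classes lay near such genes too. Regions of days 8 to 12 without iPSC were at 16 of 20 extraembryonic endoderm genes, 10 of 18 WNT genes and 8 of 14 LIF genes. Regions in iPSC alone were at 13, 16 and 6 of them. At housekeeping genes these 2 classes were at 3 and 1 of 15.

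Most genes with a late-opening region had just 1 (1283 of 1510), and 180 had 2. Plpp3, a lipid phosphatase gene, had the most, with 6, of which 3 were inside the gene and 3 between 42907 and 56543 bp from it. Their iPSC percentiles were between 51.7 and 92.5. Ephb2, Foxn3, Klf13, Mab21l3, Myo10, Plekha7, Prkce, Slc39a11 and Tns3 had 4 each. The 4 of Ephb2, an ephrin receptor gene, were all inside the gene and spanned 80.3 kb, and 3 of them were in all 3 late lists. Within runs of regions no more than 50 kb apart lay 432 regions (21.9%). Runs were not counted for other distal regions, so this share is not read as clustering. The longest runs had 5 regions, near Elf3 and Gpr37l1, near Nudt4 and near Emp2 and Tekt5.

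By position, 956 of the regions (48.4%, 46.2 to 50.6) were inside a protein-coding gene, against 49.3% of distal regions in iPSC alone, 49.0% of those of days 8 to 12 without iPSC and 60.1% of those in all 8 lists. The median distance to the nearest gene end was 22032 bp, against 31686, 25593 and 11053 bp in the same classes. Their median width was 784 bp, against 503, 483 and 1324 bp, so they were wider than the first and second of these classes and narrower than regions in all 8 lists. A merged region grows with the number of lists that cover it, so width follows in part from the rule. On the X chromosome lay 19 (0.962%, 0.580 to 1.498), against 2.298%, 2.13% and 2.44%. Among the 19 was that of Nr0b1, a repressor in the naive network, with percentiles of 59.4, 64.0 and 75.1 at days 8, 10 and 12 and 48.1 in iPSC.

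RefSeq transcript starts lay inside 78 of the regions (3.95%, 3.13 to 4.90), against 1.14% of distal regions in iPSC alone, 1.52% of those of days 8 to 12 without iPSC and 37.9% of those in all 8 lists. A wider region can hold more starts, and median widths were 784 bp against 503, 483 and 1324 bp. The part that width has in these shares was not tested. The windows numbered 88, or 0.268% of 32851 start sites. In 54 regions the starts were those of long noncoding RNAs only, and 24 held a start of a protein-coding gene. By the rule, those protein-coding starts lay more than 1 kb from both ends of the annotated gene. The median window had 5 CpG and 52.7% GC, against 6 and 52.3% in iPSC alone, 5 and 50% in days 8 to 12 without iPSC and 20 and 61.7% in all 8 lists.

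Letters of 17 motifs were searched on both strands of these windows. The SOX letters were in 8 of 88 (9.09%, 4.01 to 17.1), against 3.71% of the 32544 windows of unlike sequence. Some of the 88 overlap, since 1 region can hold several starts, so they are not independent draws. With 1 window per region the SOX letters were in 8 of 78 (10.3%, 4.53 to 19.2). They were in 4.31% of windows in regions of iPSC alone, 7.56% (9 of 119) in those of days 8 to 12 without iPSC and 2.95% in those of all 8 lists. The interval of the 88 windows includes the first and second of these shares, and that of the 78 windows only the second. The 8 genes were Gm37323, Gm33388, Mir205hg, Gm36254, Vwa3a, Smco4, 4930474N09Rik and Trpm6. TEAD letters were in 19 (21.6%, against 14.6%), ZIC in 14 (15.9%, against 10.5%), KLF in 5 (5.68%, against 3.57%), FOXA in 5 (5.68%, against 3.66%) and AP-1 in 5 (5.68%, against 7.79%). The octamer, OCT-SOX, ESRRB-NR5A2, GRHL, CEBP and NRF1-like letters were in 0 of 88, which allows a share of up to 4.11% (upper bound of the exact 95% interval). No correction was made for the 17 motifs. These windows stand for 78 of 1976 regions and say nothing of the rest.

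Most genes with a late-opening region had an end covered earlier, as did most genes of any kind. The day 2 list by itself covered an end of 78.7% of the former and of 62.2% of all genes. For genes with a region in iPSC alone this was 74.7%, and for those of days 8 to 12 without iPSC 77.6%. Of the 1510 genes, 44.8% had an end covered in all 8 lists, against 36.9% of all genes, and 12.8% had none covered in any list, against 29.7%. Genes with a region of another class were at 42.9% and 16.8% for iPSC alone and 44.3% and 13.6% for days 8 to 12 without iPSC, and those with a region in all 8 lists at 33.9% and 24.4%. An end covered first at day 8, 10 or 12 was found for 66 (4.37%, 3.396 to 5.53), against 3.55% of all genes, 3.56% of genes with a region in iPSC alone, 4.17% of genes with a region of days 8 to 12 without iPSC and 5.28% (4.24 to 6.48) of genes with a region in all 8 lists. The last share was above that of genes with a late-opening region. For 30 of the 66 the end was also covered in iPSC. Among them were Epcam and Lifr, with ends in all of days 8, 10 and 12, Foxa2 at days 8 and 10, and Nr0b1 at days 10 and 12. Of the 15 pluripotency genes, 10 had an end covered at one of days 0 to 6, 3 first at days 8 to 12 (Nr5a2, Dppa3 and Nr0b1) and 2 not before iPSC, if at all (Esrrb and Dppa4). No end of Esrrb was covered in any list, iPSC included. An end is either limit of the annotated gene span, so its coverage does not date the opening of a promoter. Of the 10 epithelial genes, 9 had an end covered at one of days 0 to 6, and the other was Epcam. The day 2 list by itself covered an end of 62.2% of all genes. The early counts of pluripotency and epithelial genes are thus not read as traits of these genes.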

How the data were processed

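The authors deposited 1 narrowPeak list per stage. The tools were MACS2 2.1.2, Bowtie2 2.2.5, fastp 0.20.1, deepTools 3.4.3 and SAMtools with build mm10, per the submitters' processing notes. Settings, any Tn5 shift and how samples were pooled are not given in the sources used here. In the authors' files, the deposited lists give for each peak a score, a fold (a ratio at the summit), −log10 p and −log10 q values and the summit offset, all as the authors' caller wrote them. They were used to rank and filter peaks inside 1 list. The fold and −log10 p of a peak together fix its summit pileup and local background, which were solved for; the solution gave back −log10 p to 0.001 in 99.9% or more of the peaks of any list and was tested on simulated data. Each list had 36 to 57 peaks outside chromosomes 1 to 19, X and Y, which were not used.

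Gene ends, nearest genes within 100 kb, hairpins and start windows came from RefSeq tables of GRCm38.p6, whose chromosomes mm10 uses. Of 282 entries in 14 gene lists 280 matched. Where a region had several peaks of a list, the best-scored was used. The members and lists were chosen with earlier results of these data known. Genes are named by rule (the 10 highest iPSC scores, the 10 with the highest lowest percentile, the 12 genes with most regions, up to 4 genes of each list and a set of 9), or marked or listed as the rest of a list.

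Motifs were searched in start windows on both strands. The octamer of POU factors was ATGCAAAT. For SOX factors the letters were AACAATG. For KLF factors they were GGGTGTGG. The site shared by ESRRB and NR5A2 was TCAAGGTCA, that of GRHL factors AACCNGGTT and that of TFAP2 factors GCCTNAGGC. TEAD factors were given as GGAATG. The site of AP-1 was written as TGANTCA. For factors of the GATA family the search used AGATAAG. The forkhead factors of the FOXA group had TGTTTAC. The homeobox factors of the OTX group had GGATTA. For zinc finger factors of the ZIC family it was CAGCAGG. The CEBP palindrome was TTGCGCAA. Runt factors (RUNX) were searched by TGTGGTT. The longer OCT-SOX composite, CTCF core and NRF1-like palindrome were also searched, and the composite shares letters with the SOX and octamer motifs. The planned search at every region's summit needs a genome sequence, which was not used here. Python 3.11.15, pandas 2.3.3, NumPy 2.4.6, SciPy 1.17.1 and matplotlib 3.10.9 were used. The genes of the trophoblast list are not reported here.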

Additional observations from a re-analysis of the deposited data

How the results depend on the processing

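The number of regions was 1976 and stayed within 1.5 times of that in 10 of 15 settings. It was 953 with the better-scored 50% of each list, 918 when peaks had to cover more than 50% of the merged region (chosen after seeing the data), 730 with all 3 late lists required, 1007 without the day 8 list and 808 without that of day 10. Leaving out the day 2 list gave 2326. In these 5 settings epithelial regions numbered 6, 6, 4, 5 and 4 in place of 17, and 11 with a 20 kb assignment limit. Pluripotency regions numbered 13 in place of 20 in the first and second settings and 10 with the 20 kb limit. The share inside genes was 45.1% with the better-scored 50%, 45.5% with all 3 late lists and 45.4% without day 10, in place of 48.4%. The median iPSC percentile, 56.6, was 76.1 with the better-scored 50%, 67.2 with equal list lengths, 63.9 with a deposited fold of at least 4, 61.0 with all 3 late lists, 61.3 without day 8 and 60.4 without day 10; the first 3 settings remove low peaks by construction. The share of genes with late-covered ends was within its interval in all 16 settings, which were added after seeing the data, as were those for microRNA loci, which numbered between 12 and 34 in place of 26. The planned overlap rule changed no value, since every peak lies whole in its merged region. The motif search at summits and its 100 bp window were not run. No paired analysis was possible because there is 1 list per stage and no column for single samples. The 8 lists differ in depth, so absence from a list does not show that chromatin was closed, and without replicate lists no difference between stages can be set against the spread between samples.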
